A study of Homo sapiens with 8 samples.

Results

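The HOX cluster genes described here are 38 listed gene symbols, taken by name from a table of 25435 genes measured in SET-2 cells. They comprise 10 HOXA genes on chromosome 7, 10 HOXB genes on chromosome 17, 9 HOXC genes on chromosome 12 and 9 HOXD genes on chromosome 2. SET-2 is a human blood cell line that the labels trace to essential thrombocythemia after its change into a megakaryoblastic leukemia. Messenger RNA was sequenced in 8 libraries, 4 labelled as ZRSR2 knockout and 4 as non-targeting control. ZRSR2 encodes a splicing factor that recognises the 3′ splice site, mainly of the rare U12-type introns. Cells carried guide RNAs delivered by PLKO5 GFP virus, and each genotype had 2 guides, each used in 2 experiments; a further ZRSR2 guide of the design was not analysed here. In each genotype, experiment 1 gave replicate 1 (guide 1) and replicate 2 (guide 2), while experiment 2 gave replicate 3 (guide 1) and replicate 4 (guide 2). The protocol places RNA extraction at day 20 for the first biological replicate and at day 25 for the second, and it is assumed here that these are the 2 experiments. Experiment, day and any sequencing batch therefore cannot be told apart. All libraries come from this single line, and the labels do not say whether edited cells were sorted or cloned, so p-values measure only the spread between these libraries, which may be technical.

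HOX genes encode transcription factors that bind DNA through a homeodomain, and their order along each cluster follows the order in which they are used along the body axis. In blood, HOXA and HOXB genes are active in stem and progenitor cells and fall as cells mature, and several of them promote self-renewal when forced on. HOX proteins bind DNA together with partners of the TALE family (PBX, MEIS and PKNOX), while trithorax complexes keep their clusters active and Polycomb complexes keep them silent.

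The member with the highest RNA level in each of the HOXB and HOXA clusters is represented by its homeobox, the coding stretch for the homeodomain, because it shows what proteins of different clusters share. Each sequence has 180 bases on the coding strand, taken from GENCODE 29 transcripts, and the 18 capitals mark the core of the recognition helix, which contacts the major groove of DNA.
HOXB2: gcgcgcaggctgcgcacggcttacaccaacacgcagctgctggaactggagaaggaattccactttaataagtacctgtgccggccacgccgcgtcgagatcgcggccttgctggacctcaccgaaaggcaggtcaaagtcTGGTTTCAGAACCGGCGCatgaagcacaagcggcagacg
HOXA4: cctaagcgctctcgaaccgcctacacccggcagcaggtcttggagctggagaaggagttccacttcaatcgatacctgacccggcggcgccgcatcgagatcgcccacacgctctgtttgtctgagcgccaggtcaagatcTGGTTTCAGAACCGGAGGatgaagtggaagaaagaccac
These homeoboxes were identical at 117 of 180 bases. Between the longest coding transcripts of the members, the longest run of identical bases for HOXB3 was 62, shared with HOXD3, which was listed at 0 in every library. For HOXB4 it was 50, with HOXB5, and for HOXA4 29, with HOXC12. Other transcripts of neighbouring members overlap in the genome and share longer stretches.

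RNA was found from the HOXB and HOXA clusters and close to none from HOXC and HOXD. The level unit is CPM, the counts of a gene per 1000000 counts of its library after TMM scaling. Total counts per library ran from 31106042 to 71521173, so that 3 counts, the limit that a count of 0 allows, corresponded to between 0.0428 and 0.0971 CPM (counting error only). Of the 38 members, 5 were at 1 CPM or more in every library (HOXB2, HOXB3, HOXB4, HOXB6 and HOXA4), 9 exceeded 3 counts in some library without reaching 1 CPM in all, 10 had 1 to 3 counts at most and 14 had no count in any library. Chromatin was not measured, so these levels say which clusters yielded RNA and not whether the chromatin was open.

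The HOXB cluster held nearly all of it. The 10 HOXB members summed to 120.6 ± 13.3 CPM (SD, n = 8), from 99.1 to 142.0 CPM, with 4 members at 1 CPM or more throughout. The 10 HOXA members summed to 7.69 ± 0.737 CPM (SD, n = 8), from 6.74 to 8.81 CPM, with 1 such member. The lowest HOXB sum thus lay above the highest HOXA sum. HOXB2, HOXB3 and HOXB4 alone held 39356 of the 43538 counts of all 38 members, or 90.4%.

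**Figure D1:**
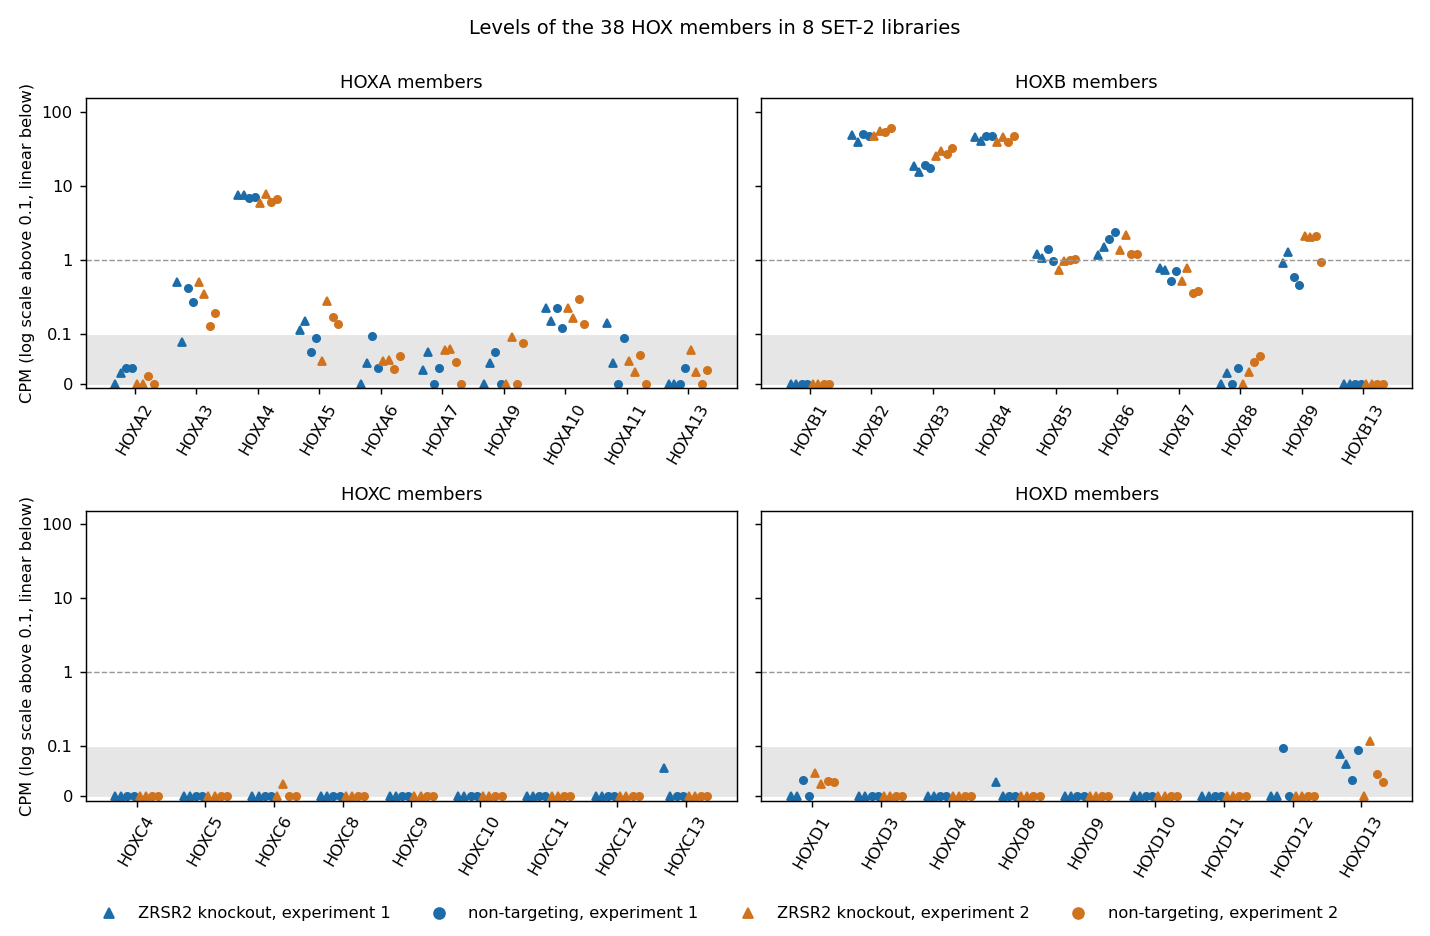
CPM of each member (one panel per cluster, genes in cluster order) in each of the 8 libraries, on an axis that is logarithmic above 0.1 and linear below; triangles are knockout, circles non-targeting, blue experiment 1 and orange experiment 2, the dashed line is 1 CPM and grey marks values up to 3 counts in the shallowest library. HOXB2, HOXB3 and HOXB4 stand between 15.2 and 60.04 CPM, HOXA4 between 5.79 and 7.76 CPM, and the HOXC panel holds 3 counts in all.

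HOXB2 is an anterior gene of its cluster that patterns the hindbrain. Knockout replicates 1 to 4 had 48.1, 38.7, 46.5 and 55.2 CPM of it, and non-targeting replicates 1 to 4 had 50.2, 46.9, 52.2 and 60.04 CPM. The genotypes overlapped, the lowest library being knockout replicate 2 and the highest non-targeting replicate 4. HOXB4, known for expanding blood stem cells when it is overproduced, was measured at 44.9, 40.6, 38.4 and 44.9 CPM in the knockout (replicates 1 to 4) and at 46.8, 46.5, 39.0 and 46.5 CPM in the controls. It varied least among the listed members that were tested, with a coefficient of variation of 8.13% over the 8 libraries, and its experiments overlapped. HOXB3, which lies between these 2 genes, was measured at 18.7, 15.2, 25.0 and 29.3 CPM in the knockout (replicates 1 to 4) and at 18.8, 17.1, 26.9 and 31.9 CPM in the controls. All 4 libraries of experiment 2 lay above all 4 of experiment 1, in both genotypes.

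Further along the HOXB cluster the levels dropped to about 1 CPM. HOXB5 was measured at 1.21, 1.06, 0.721 and 0.961 CPM in the knockout (replicates 1 to 4) and at 1.42, 0.976, 0.984 and 1.02 CPM in the controls. HOXB6 was at 1.15, 1.505, 1.35 and 2.13 CPM in the knockout and at 1.91, 2.35, 1.197 and 1.21 CPM in the controls. Both genes overlapped between genotypes and between experiments. HOXB7 ranged from 0.356 to 0.786 CPM on 14 to 34 counts a library. HOXB8, the next gene, had at most 3 counts in any library, 8 in all. HOXB9, beyond it, was measured at 0.898, 1.27, 2.07 and 2.02 CPM in the knockout (replicates 1 to 4) and at 0.583, 0.457, 2.08 and 0.934 CPM in the controls. Except for non-targeting replicate 4, the libraries of experiment 2 lay above those of experiment 1. The end genes HOXB1 and HOXB13 were listed at 0 throughout, which allows up to 3 counts in each library.

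In the HOXA cluster a single listed member, HOXA4, was well above the limit. It was measured at 7.41, 7.48, 5.79 and 7.76 CPM in the knockout (replicates 1 to 4) and at 6.80, 6.98, 6.002 and 6.68 CPM in the controls, with both genotypes and both experiments overlapping. Its neighbour HOXA3 ranged from 0.0848 to 0.505 CPM on 4 to 22 counts a library. HOXA10 ranged from 0.122 to 0.299 CPM and HOXA5 from 0.0451 to 0.281 CPM. HOXA9, which is often high in acute myeloid leukemia, reached at most 4 counts in a library and 0.0937 CPM. HOXA11 reached at most 5 counts, and HOXA2, HOXA6, HOXA7 and HOXA13 at most 3.

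The HOXC members had 3 counts in all 8 libraries together, 1 in HOXC6 and 2 in HOXC13, and the other 7 were listed at 0. The HOXD members had 30 counts, of which 19 came from HOXD13, a gene of digit formation, with at most 5 in a library. HOXD1 had 7 counts, HOXD12 3 and HOXD8 1, and the other 5 were listed at 0. A listed 0 was read with care, because the platelet gene GP1BB was also listed at 0 in these cells while ITGA2B, which encodes another platelet receptor subunit, stood at a mean of 2338 CPM.

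Levels between genes were compared per length, as CPM per kilobase of the longest coding transcript in GENCODE 29. On this scale HOXB2 was highest at 31.8 ± 4.09, followed by HOXB4 at 11.6 ± 0.94 and HOXB3 at 5.43 ± 1.48 (SD, n = 8 each). HOXA4 followed at 3.93 ± 0.40. HOXB3 and HOXA4 stood close in experiment 1, at 4.14 ± 0.399 and 4.10 ± 0.19, and apart in experiment 2, at 6.72 ± 0.713 and 3.75 ± 0.506 CPM per kilobase (SD, n = 4 each). HOXB6 at 0.817 ± 0.238, HOXB5 at 0.511 ± 0.09997, HOXB9 at 0.4995 ± 0.264 and HOXB7 at 0.434 ± 0.126 made a lower group, in which the ranges of 1 SD around neighbouring means overlapped. The place of HOXB3 depends on its transcript: with its shortest coding transcript it would stand at 40.5 CPM per kilobase. Which transcripts were present was not tested. In the annotation HOXB3 shares exon bases with HOXB4 (159), with HOXB6 (433) and, on the opposite strand, with HOXB-AS1 (374), and HOXA4 shares 254 with the antisense gene HOXA-AS2. On the same strand, HOXA4 also shares 541 exon bases with a processed transcript and HOXB4 shares 482 with a sense intronic one. The use of strand in counting is not given in the sources used here, and knowing it would not separate genes on the same strand, so reads in these stretches cannot be assigned with certainty.

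The HOX RNA of the line was set beside its cell type markers. The megakaryocyte markers GATA1, at a mean of 264 CPM, and NFE2, at 353 CPM, were high, as were the erythroid markers KLF1, at 387 CPM, and HBG2, at 918 CPM. The megakaryocyte list was not high throughout. In it ITGA2B stood at 2338 CPM, but VWF at 20.2 CPM, PF4 at 1.58 CPM and PPBP at 0.596 CPM, and GP1BB was listed at 0. Of the neutrophil and lymphocyte markers, MPO had at most 5 counts in a library, CD3E at most 2, and MS4A1 was listed at 0, whereas LYZ stood at 230 CPM and CD79A at 25.1 CPM. The stromal list of 6 genes summed to between 6.69 and 8.51 CPM.

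**Figure D2:**
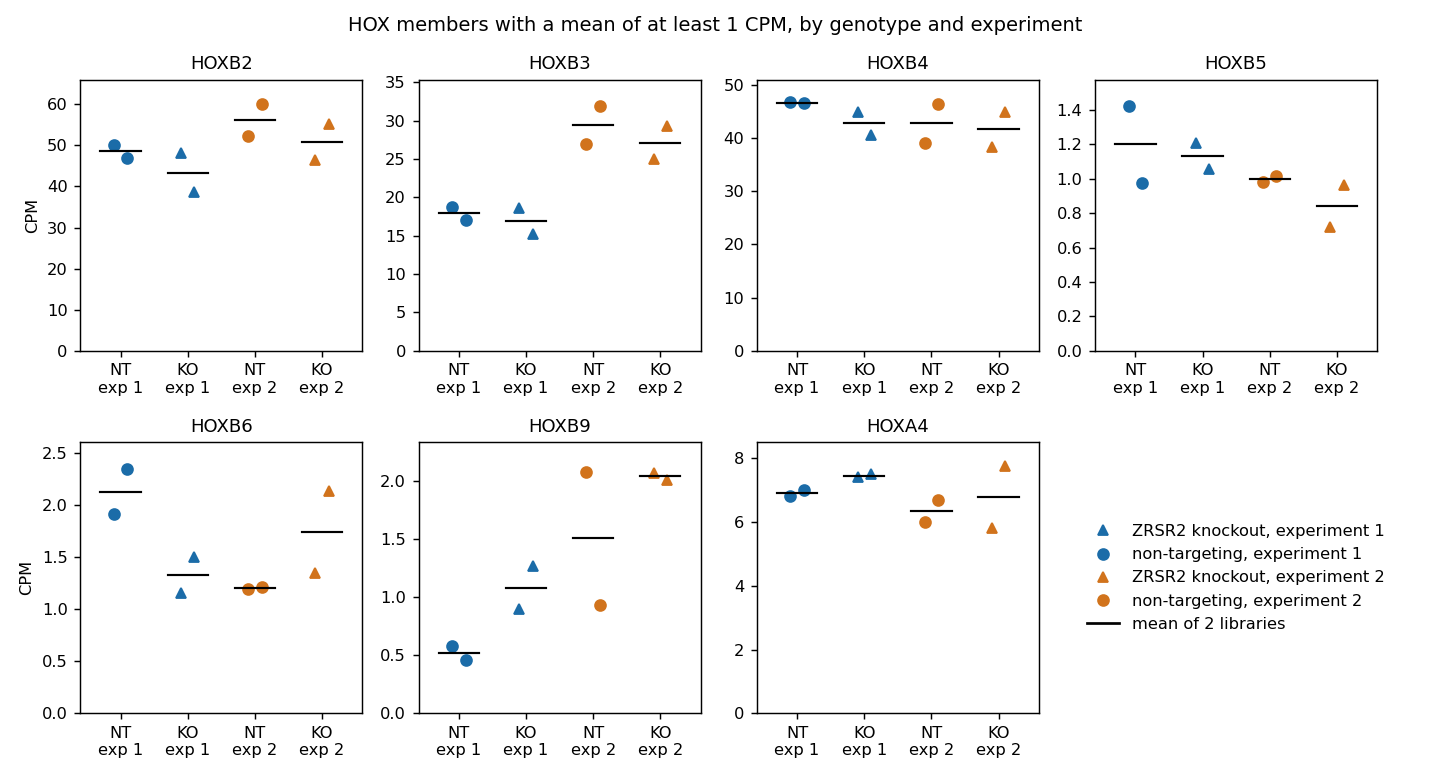
CPM of the 7 members with a mean of at least 1 CPM, by genotype (NT, non-targeting; KO, ZRSR2 knockout) and experiment, each axis starting at 0; points are libraries and black lines the mean of 2. HOXB3 and HOXB9 are higher in experiment 2 within each genotype, while HOXB4 and HOXA4 overlap between experiments. Across genotypes HOXB9 overlaps, with non-targeting replicate 4 of experiment 2 (0.934 CPM) below knockout replicate 2 of experiment 1 (1.27 CPM).

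The experiments were compared with both genotypes averaged. HOXB3 and HOXB9 were higher in experiment 2, and none of the members was called lower. By edgeR's quasi-likelihood test, 2 of the 9 members tested passed an adjusted p of 0.05, against 58.2% of all 14898 tested genes (29.6% higher and 28.6% lower), so the share of members called was below the background. At an unadjusted p of 0.05, 3 of 9 passed, beside 62.9%. The other 29 members had too few counts to be tested. The median log2 fold change of the 9 tested members was −0.13, beside 0.003 over all tested genes.

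HOXB3 rose from 17.4 ± 1.68 CPM in experiment 1 to 28.3 ± 2.999 CPM in experiment 2 (SD, n = 4 each), a log2 fold change of 0.70 with an SE of 0.11 and an adjusted p of 2.56e-04 by edgeR. It was the only tested member whose experiments did not overlap, which was so for 56% of all tested genes. HOXB9 rose from 0.802 ± 0.364 to 1.78 ± 0.562 CPM (SD, n = 4 each), a log2 fold change of 1.24 with an SE of 0.28 and an edgeR adjusted p of 0.00307. HOXB2, at 46.0 ± 5.04 and 53.5 ± 5.66 CPM, differed by 0.22 on the log2 scale (SE 0.10), with an adjusted p of 0.0748 by edgeR. It passed the threshold without the filter on low counts (0.0403) and when knockout replicate 1 (0.0370), knockout replicate 3 (0.0475) or non-targeting replicate 3 (0.0367) was left out.

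The remaining members did not pass, and their log2 fold changes were all below 0. HOXB4 stood at −0.08 with a 95% interval of −0.28 to 0.11, and HOXA4 at −0.13 with an interval of −0.41 to 0.15. HOXB5 was at −0.34, HOXB6 at −0.22, HOXB7 at −0.47 and HOXA3 at −0.27. The widest interval was that of HOXA3, from −1.36 to 0.81.

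Ratios of counts within a library do not depend on how libraries are scaled against each other. These ratios were chosen after the values were seen and carry no test. The ratio of HOXB3 to HOXB4 was between 0.367 and 0.416 in the 4 libraries of experiment 1 and between 0.651 and 0.690 in those of experiment 2. The ratio of HOXB2 to HOXB4 was between 0.952 and 1.07 in experiment 1 and between 1.21 and 1.34 in experiment 2. Neither range overlapped between experiments. The levels of 56% of all tested genes did not overlap either, and no such share was computed for ratios. The ratio of HOXB3 to HOXB2 ran from 0.364 to 0.393 and then from 0.515 to 0.537. The ratio of HOXA4 to HOXB4 overlapped, at 0.145 to 0.184 and 0.144 to 0.173.

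**Figure D3:**
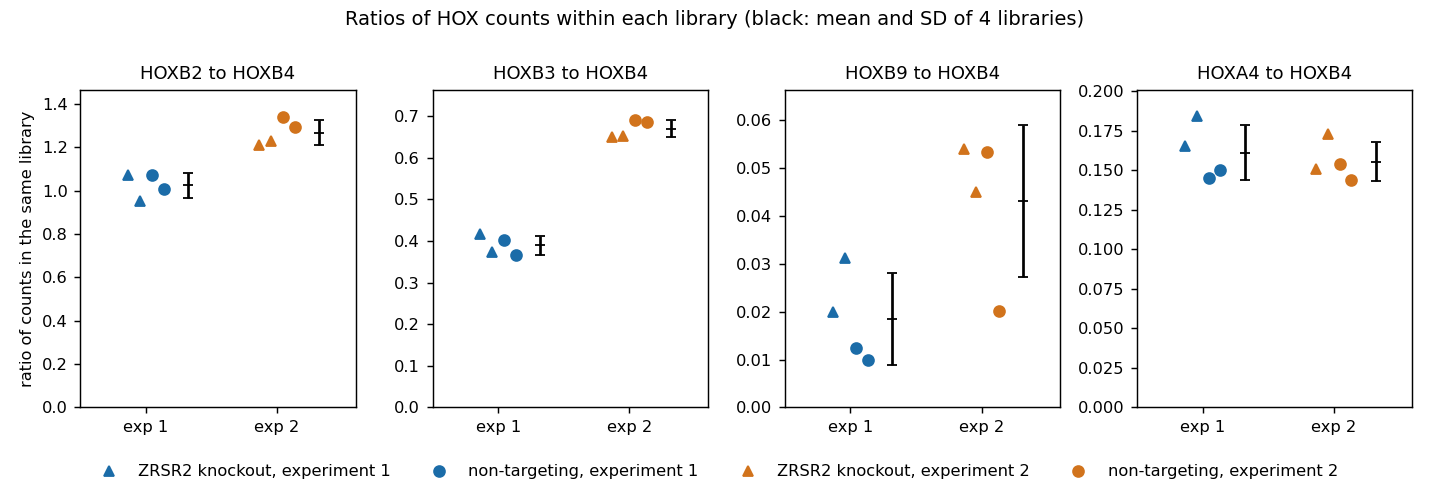
Ratio of 2 genes' counts in the same library for 4 gene pairs, by experiment, each axis starting at 0; points are libraries, and the black bar is the mean and SD of 4. The ratios of HOXB2 and HOXB3 to HOXB4 do not overlap between experiments, whereas those of HOXB9 and HOXA4 to HOXB4 do. The levels of 56% of all tested genes did not overlap between experiments, and no such share was computed for ratios.

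The antisense and noncoding genes of the clusters were at low levels. Of 34 listed symbols, 23 were in the table, 11 of these had no count in any library, and 2 were tested. The list includes microRNA genes, for which a listed 0 in messenger RNA libraries was not read as absence. HOXB-AS1, which lies opposite HOXB2 and HOXB3, had a mean of 4.11 ± 0.315 CPM in experiment 1 and 6.08 ± 1.39 CPM in experiment 2 (SD, n = 4 each), and it rose by 0.55 on the log2 scale (SE 0.15), with an adjusted p of 0.00995 by edgeR. Its ratio to HOXB3 overlapped between experiments, at 0.195 to 0.276 and 0.174 to 0.243. HOTAIRM1, transcribed from the start of the HOXA cluster, was at 2.81 CPM on average and did not pass, with a log2 fold change of 0.19 (95% interval −0.15 to 0.54). HOXA11-AS was at 0.0803 CPM. HOTAIR, a noncoding gene of the HOXC cluster named after its value was seen, was listed at 0.

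Most listed genes near the HOXC and HOXD clusters had RNA although the members there had next to none. The exception was EVX2, near HOXD, which was listed at 0 in every library, as was EVX1, near HOXA. CBX5, at a mean of 309 CPM, and ATP5G2, at 207 CPM, lie near HOXC, and ATP5G3, at 122 CPM, lies near HOXD. In the comparison of experiments, 5 of 12 tested flanking genes were higher and 2 lower, with a median log2 fold change of 0.18, beside 58.2% called over all tested genes. HIBADH, a valine breakdown enzyme near HOXA, had the largest change (1.29). CALCOCO2, an autophagy receptor near HOXB, was at 0.66, SNX11, a sorting nexin also near HOXB, at −0.62, and CALCOCO1, near HOXC, at 0.61.

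**Figure D4:**
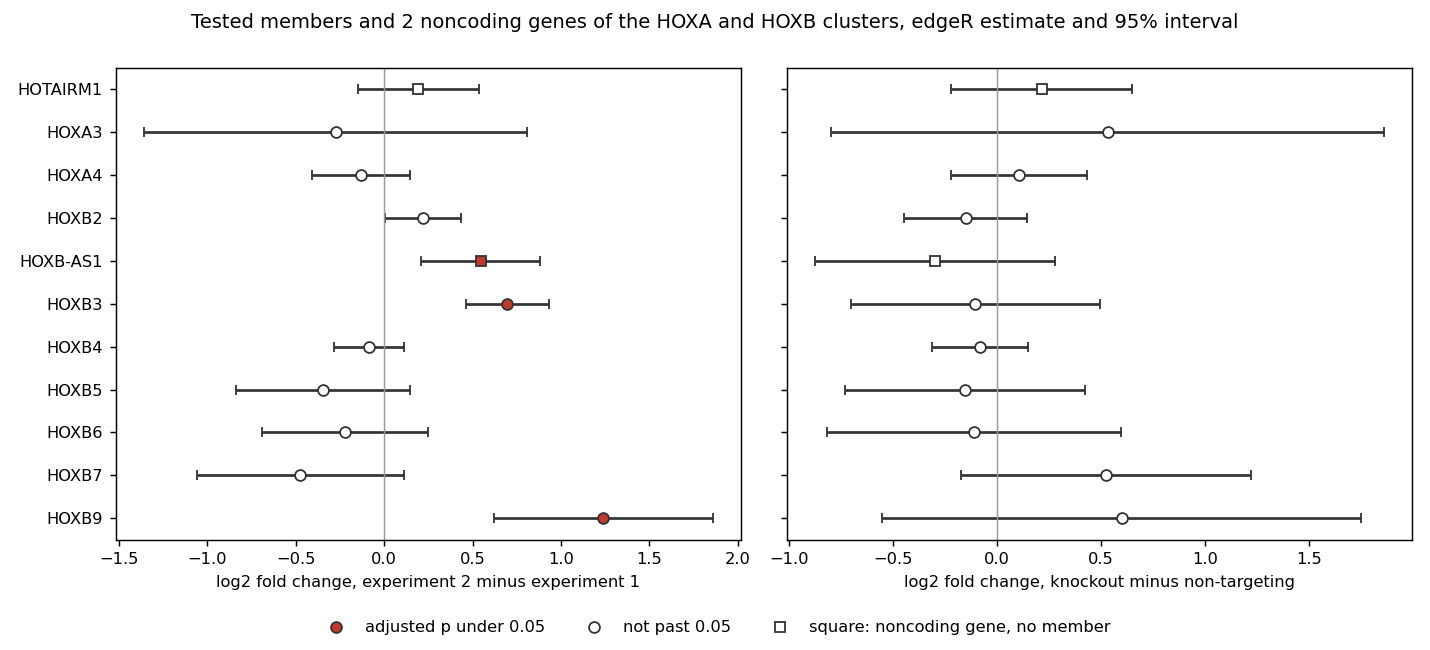
edgeR log2 fold change and 95% interval for the 9 tested members and 2 noncoding genes of the HOXA and HOXB clusters, experiment 2 against 1 on the left and knockout against non-targeting on the right; circles are listed members, squares the noncoding genes, and red marks an adjusted p under 0.05. HOXB3 (0.70), HOXB9 (1.24) and HOXB-AS1 (0.55) are red on the left and no gene is red on the right.

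Of 7 tested genes for the TALE partners of HOX proteins (8 in the list), 4 were higher in experiment 2 and 1 lower, with a median log2 fold change of 0.63. These counts and those of the lists that follow stand beside 29.6% higher and 28.6% lower over all tested genes, and no list was tested against that background. PBX2, the most abundant, rose from 203 ± 10.2 to 315 ± 26.1 CPM (SD, n = 4 each), a log2 fold change of 0.63. PBX3 rose from 22.6 ± 3.59 to 54.3 ± 6.63 CPM (1.27 on the log2 scale). PBX4, at 0.70, and MEIS3, at 1.56, also rose. PKNOX1 fell from 40.9 ± 2.36 to 26.0 ± 0.454 CPM (−0.65), and MEIS2 did not pass (−0.08).

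Regulators of HOX chromatin moved both ways. Of 13 tested activators, 5 were higher and 5 lower, with a median log2 fold change of −0.01. PSIP1, which tethers the menin and KMT2A complex to chromatin, was higher (0.59), as was KMT2A itself (0.35). WDR5, a core part of that methyltransferase complex, was lower (−0.61), as were the insulator protein CTCF (−0.51) and the nucleolar chaperone NPM1 (−0.51). KAT6A, an acetyltransferase, did not pass (−0.11). MLLT3, named after its value was seen, was listed at 0 in every library.

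Of 19 tested Polycomb genes, 4 were higher and 6 lower, with a median of −0.05. CBX7, a chromodomain subunit, rose from 1.91 ± 0.409 to 7.85 ± 0.325 CPM (SD, n = 4 each), a log2 fold change of 2.06. The related CBX2 was lower (−0.75), PHC1 was higher (0.55), and its paralog PHC2 was lower (−0.90). The histone-binding subunit RBBP4 was lower (−0.37), and ASXL1 (0.03) and JARID2 (−0.19) did not pass. The upstream activators CDX1, CDX2 and CDX4 were listed at 0 in all libraries, as were the 5 ParaHox and EVX genes listed. Whether any of these genes acted on HOXB3 or HOXB9 was not tested.

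Markers of cell type also differed between the experiments. Of 11 tested megakaryocyte markers 4 were higher and 1 lower, and their sum was 3232 to 3461 CPM in experiment 1 and 3370 to 4168 CPM in experiment 2. Of 10 erythroid markers 4 were higher and 2 lower, with sums of 1579 to 1753 and 1747 to 2482 CPM. The myeloid list of 6 summed to 229 to 248 and 253 to 326 CPM, and the lymphoid list of 5 to 13.9 to 15.2 and 37.7 to 55.3 CPM, mostly CD79A. In these lists 1 of 4 and 2 of 2 tested genes were higher and 0 lower. Of the 6 stromal genes 2 were higher and 2 lower, with sums of 6.70 to 8.31 and 6.69 to 8.51 CPM. Their part in the HOX changes was not tested, and in bulk RNA fewer cells of a type and less RNA per cell cannot be told apart.

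**Figure D5:**
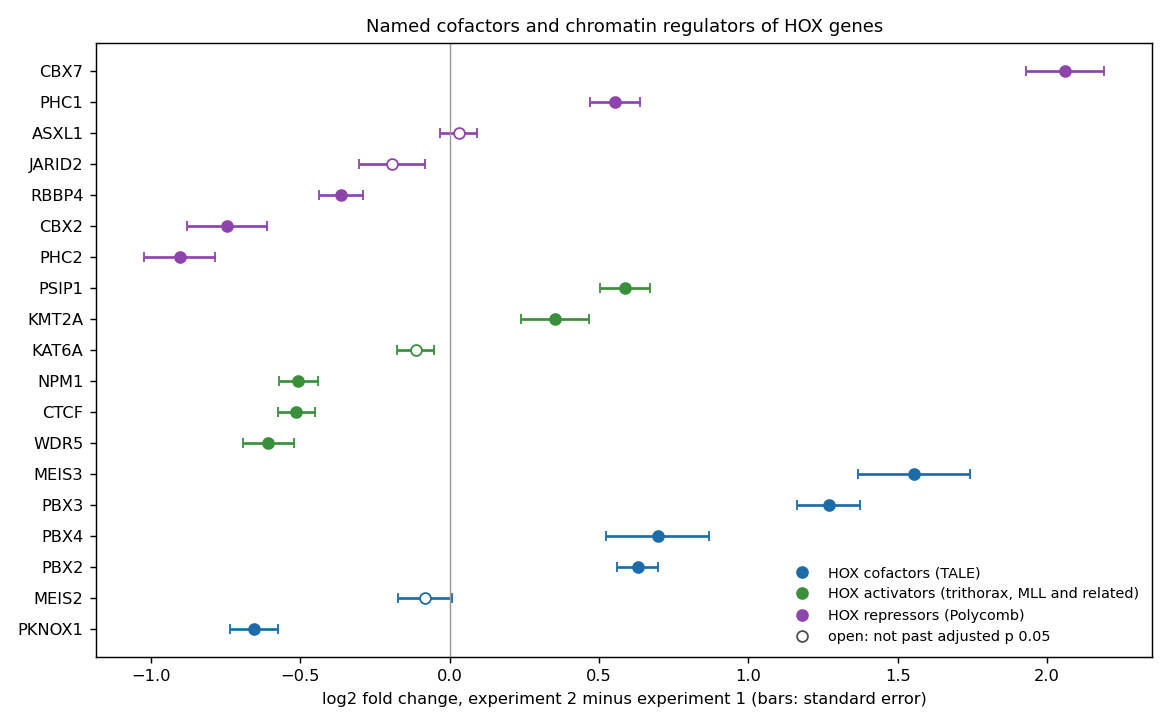
log2 fold change of experiment 2 against experiment 1 with its standard error for the named TALE cofactors, activators and Polycomb genes; filled points passed an adjusted p of 0.05 and open points did not. CBX7 (2.06) and MEIS3 (1.56) lie farthest right and PHC2 (−0.90) farthest left.

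The knockout comparison asks whether HOX RNA differed between libraries labelled as ZRSR2 knockout and as control. Only RNA was measured here, so how much ZRSR2 protein was lost is not known. ZRSR2 itself was measured at 29.4, 22.9, 28.3 and 18.7 CPM in the knockout (replicates 1 to 4) and at 37.9, 39.2, 39.7 and 41.1 CPM in the controls. All knockout libraries lay below all controls, a difference of −0.67 on the log2 scale (SE 0.15). By edgeR the unadjusted p was 0.00165 and the adjusted p 0.9999, and with the experiment as a block DESeq2 gave an adjusted p of 5.38e-04.

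No HOX member was called different between knockout and control. The edgeR test called 0 of the 9 tested members, beside 0% of all tested genes, and at an unadjusted p of 0.05 it called 0 of 9, beside 0.597%. DESeq2 also called 0 of 9, beside 0.0268% of genes, and 0 of 9 with the experiment as a block, beside 0.208%, where 1 of 9 passed an unadjusted p of 0.05, beside 4.26%. In none of the 9 members did the knockout libraries lie wholly apart from the controls, which was so for 0.678% of all tested genes. The estimates of the fit on genotype alone were as follows. HOXB4 was at −0.08 on the log2 scale (95% interval −0.31 to 0.15), HOXB2 at −0.15 (−0.45 to 0.14), HOXA4 at 0.10 (−0.22 to 0.43) and HOXB3 at −0.10 (−0.70 to 0.49). HOXB5 was at −0.15 and HOXB6 at −0.11. HOXB9 was at 0.60 (−0.55 to 1.75), HOXB7 at 0.52 (−0.17 to 1.22) and HOXA3 at 0.53 (−0.80 to 1.86). With the experiment as a block the 95% intervals were narrower, at −0.26 to 0.10 for HOXB4, −0.35 to 0.05 for HOXB2, −0.15 to 0.36 for HOXA4 and −0.32 to 0.12 for HOXB3. They were −0.03 to 1.12 for HOXB7 and −0.56 to 1.74 for HOXA3. In that fit HOXB9 was at 0.66 (0.05 to 1.26) with an edgeR unadjusted p of 0.0348 and an adjusted p of 0.9997, beside 4.63% of genes at that unadjusted level, and without the block its estimate was 1.24 when non-targeting replicate 3 was left out.

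The knockout effect was then taken within each experiment. In experiment 1 edgeR called 0 of 9 members, beside 0% of genes, and 2 of 9 at an unadjusted p of 0.05, beside 2.05%. These were HOXB9, with a log2 fold change of 1.07 (unadjusted p 0.0328), and HOXB6, with −0.67 (unadjusted p 0.0486). DESeq2 called 0 there, beside 0.0336% of genes, and 1 at the unadjusted level, beside 1.58%. In experiment 2 edgeR called 0 of 9, beside 0% of genes, and 0 at the unadjusted level, beside 4.33%. DESeq2 gave 0 and 0, beside 0.0873% and 3.54%. HOXB9 was at 0.39 and HOXB6 at 0.53 there, neither past the threshold. The difference between the experiments' knockout effects was 1.204 for HOXB6 (edgeR unadjusted p 0.0165, adjusted p 0.9999) and −0.68 for HOXB9, and edgeR and DESeq2 called 0 of 9 members for it, beside 0% of genes by either tool. At the unadjusted level each tool had 1 of 9, beside 1.66% by edgeR and 1.21% by DESeq2.

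Guides of one genotype were also compared, over 2 libraries each. Between the ZRSR2 guides edgeR called 0 of 9 members, and 0 at an unadjusted p of 0.05, beside 0% and 0.181% of genes. Between the non-targeting guides it called 0 and 0, beside 0% and 0.0873%. The experiment was left out of this fit. With the experiment as a block, edgeR called 0 of 9 members in either comparison, beside 0 genes. At an unadjusted p of 0.05 it then had 0 of 9 for the ZRSR2 guides, beside 376 of 14898 genes. For the non-targeting guides it had 1 of 9, beside 482 of 14898 genes. Without the block, DESeq2 called 0 members in either comparison, beside 0% of genes. It had 0 at the unadjusted level, beside 0.336% for the ZRSR2 guides and 0.128% for the controls. HOXB4 had a mean of 41.6 CPM with ZRSR2 guide 1 and 42.7 CPM with guide 2, and of 42.9 and 46.5 CPM with the non-targeting guides. HOXB9 had 1.49 and 1.64 CPM with the ZRSR2 guides and 1.33 and 0.696 CPM with the non-targeting guides. Its genotype means were 1.56 ± 0.575 CPM in the knockout and 1.01 ± 0.74 CPM in the controls (SD, n = 4 each). Non-targeting guides 1 and 2 stood at 0.583 and 0.457 CPM in experiment 1 and at 2.08 and 0.934 CPM in experiment 2. The gap between their means thus came mainly from experiment 2, with 1 library per guide.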

How the data were processed

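The authors deposited RSEM expected counts per gene symbol for 8 libraries. Per the submitters' processing notes, the build was hg19 and the tools RSEM 1.2.30 and cutadapt 1.11. Aligner, annotation and strand are not given in the sources used here. The expected counts were whole numbers, and rounding changed none. Per the labels' protocols, a Kapa mRNA HyperPrep kit was used. 0 columns belonged to other samples.

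The whole table was fitted with edgeR 4.0.16 in R 4.3.3: filterByExpr on genotype (14898 genes), TMM, quasi-likelihood F test and Benjamini-Hochberg adjustment over all tested genes at 0.05. Genotype alone was the term for the knockout, 4 cells of genotype by experiment for the experiments, and 4 guides for the guides. Standard errors were derived from the F statistic. DESeq2 1.42.0, other scaling and filters, leaving out each library and the experiment as a block were alternatives. The fit was tested on simulated data. Figures used Python 3.11.15 and matplotlib 3.10.9.

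Libraries of different genotype from the same experiment deviated together from their genotype means (r from 0.678 to 0.846 in 8 pairs). Across experiments r ran from −0.816 to −0.709, a sign tied to the first by the centring on genotype means. The samples thus pair by experiment, but the main knockout fit, on genotype alone, leaves this pairing out. In it 0.597% of genes passed an unadjusted p of 0.05 by edgeR, beside 4.63% with the experiment as a block. No 2 libraries agreed within sampling noise (chi-square per degree of freedom at least 2.99 in 28 pairs).

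Members with a mean of at least 1 CPM, members past the threshold, and of each other list up to 4 genes of largest change past it and up to 3 of highest level were to be named. Members and lists were chosen with earlier results of these data known, and some listed genes and sequences are not reported here. Transcript lengths, overlaps and sequences came from GENCODE 29 on another build (GRCh38), so no gene coordinates are given. Protein sequences were not used here, and homeobox coding sequences are shown in their place.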

Additional observations from a re-analysis of the deposited data

Results flagged for a closer look

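A library far from the other 3 of its group of 4 was looked for in 28 groups of member and condition, and 4 were found. Chance gives about 1 in 20 for independent groups, each from a single normal population. These groups split the same 8 libraries by genotype and again by experiment, and each genotype group mixes the 2 experiments. That rate therefore does not strictly apply to them. Among the controls, HOXB4 was at 39.0 CPM in non-targeting replicate 3, the deepest library, against 46.5 to 46.8 CPM in the others. Of the knockout libraries of the same experiment, replicate 3 was at 38.4 CPM and replicate 4 at 44.9 CPM. HOXB5 was at 1.42 CPM in non-targeting replicate 1 against 0.976 to 1.02 CPM in the other controls. Within experiment 2, HOXB6 was at 2.13 CPM in knockout replicate 4 against 1.197 to 1.35 CPM in the others. HOXB9 was at 0.934 CPM in non-targeting replicate 4 against 2.02 to 2.08 CPM in the rest of experiment 2.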

How the results depend on the processing

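Over 58 results, 750 values were computed under alternatives, and 729 were counted as the same. For an estimate this meant the same direction and the same side of the threshold. For a count it allowed a change in size. Between experiments, members called went from 2 to as many as 3, and genes called from 8671 to between 7178 and 9312. HOXB2 between experiments passed the threshold under 4 alternatives and ZRSR2 under 1. HOXB3 ranged from 0.63 to 0.77 on the log2 scale between experiments and HOXB9 from 0.87 to 1.44, with adjusted p up to 0.00236 and 0.0161. The number of members called in the knockout comparisons was 0 under every alternative run, and with the experiment as a replicate block no member's call changed. Counts over all genes moved from 0: knockout against control to 4 with DESeq2 and 31 with DESeq2 and the block, knockout within experiment 1 to 40 without a count filter, 5 with DESeq2 and 0 to 2 when 1 library was left out, knockout within experiment 2 to 116, 13 and 0 to 154 (without non-targeting replicate 3), and the difference between experiments to 5 without a filter. Signs turned when 1 library was left out, none of them called. HOXA3 between experiments ranged from −0.71 to 0.56 (the latter without knockout replicate 1). In the knockout comparison HOXB3 ranged from −0.27 to 0.086 (0.04 without knockout replicate 2 and 0.086 without control replicate 4) and HOXB6 from −0.31 to 0.10 (0.0038 without knockout replicate 1 and 0.10 without control replicate 2). HOXB9 within experiment 2 ranged from −0.0031 (without control replicate 4) to 1.13 (without control replicate 3), and its difference between experiments from −1.08 (without control replicate 4) to 0.053 (without control replicate 3). The cause was not tested. Members at 1 CPM or more in every library numbered 4 to 6 under the alternatives. Depth limits the 29 members not tested, 24 of them at 3 counts or fewer in every library. The 9 tested members are limited by 4 libraries a group. Among these, HOXA3 (4 to 22 counts a library) and HOXB7 (14 to 34) are limited by depth as well.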
